A study of Mus musculus with 5 samples.

Results

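Imprinted genes are those whose transcript comes mainly from the chromosome inherited from one parent, and 37 of them, listed by symbol, were followed among the 49315 genes of a count table from mouse lung endothelial isolates. All 37 symbols were found. Textbook knowledge, not these data, sorted them into 22 paternally expressed genes, 14 maternally expressed genes and Gnas, whose different transcripts come from either parent. Poly(A) RNA was sequenced from 2 libraries of mice that lack TET2 in endothelial cells (TET2KO, so labelled) and 3 libraries of wild-type (WT) mice. All 5 libraries came from mice infused with angiotensin II, a vasoconstrictor peptide hormone, for 28 days, so no group without the hormone was compared. The labels gave neither the Cre driver nor the deleted exons, neither the strain, age nor sex of the mice, nor how the endothelial cells were isolated. Nothing in them ties a library to its own animal, and the p-values therefore describe variation among these 5 libraries, which may be technical.

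At an imprinted gene, DNA methylation laid down in the egg or the sperm marks one parental copy at an imprinting control region, and the mark is kept through cell division in body cells. The active or silent state of each copy follows from that mark, often through a long non-coding RNA or an insulator that acts on several neighbouring genes. TET2 oxidises 5-methylcytosine, the base that carries the mark, which is why these genes are of interest in a TET2 knockout. Many imprinted genes act on growth, among them the IGF2 ligand, its clearance receptor IGF2R and the adaptor GRB10. Many are most active before birth. Read counts per gene do not tell the parental copies apart, so neither the loss of imprinting nor its retention was measured.

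Total counts ranged from 30035235 to 31239463 in the TET2KO libraries and from 27346804 to 35440257 in the WT libraries. CPM values below are counts per 1000000, on totals scaled by TMM (trimmed mean of M-values), while the authors' deposited TPM values, which are scaled by gene length, compare levels between genes. The chi-square per gene between 2 libraries was lowest, at 35.6, for TET2KO replicate 1 and WT replicate 3, far above counting noise, and 35.8 for the TET2KO pair. Tet2 itself, counted over the whole gene, was at 139 and 162 CPM in TET2KO against 141, 174 and 131 CPM in WT, which does not check the labels because the deleted exons are not given. The 20 endothelial marker genes made up 0.791% and 0.828% of counts in TET2KO libraries against 0.462%, 0.311% and 0.592% in WT libraries. Cdh5, the endothelial cadherin, was at 1256 and 1163 CPM in TET2KO against 628, 484 and 952 CPM in WT. Leukocyte genes were counted in every library as well: Ptprc (CD45) was at 1205 and 1163 CPM in TET2KO and 1513, 1206 and 1398 CPM in WT. Alveolar macrophage markers held 0.227% and 0.516% of counts in TET2KO and 0.489%, 1.83% and 0.168% in WT, so that WT replicate 2 stood apart. The median log2 fold change of the 8 tested macrophage markers was -1.07, and 0.22 without that library. The 10 leukocyte markers held 0.992% and 0.987% in TET2KO and 1.34%, 1.79% and 1.16% in WT.

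The labels and the authors' deposited comparison did not group the libraries alike. For 100% of its 18019 genes, the deposited log2 fold change equalled, within 0.01, the mean of WT replicate 3 and both TET2KO libraries over the mean of WT replicates 1 and 2. Groups here follow the labels, and results are also given without the library labelled WT replicate 3.

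Most imprinted genes were low in these isolates, and a few were not. By TPM, Gnas, which encodes the stimulatory G protein alpha subunit, was highest at 80.8 ± 0.18 in TET2KO and 77.2 ± 18.7 in WT (SD, n = 2 and 3, as throughout). Impact, a regulator of translation through the kinase GCN2, followed at 70.5 ± 1.90 TPM in TET2KO and 76.4 ± 23.1 TPM in WT. Mcts2, Inpp5f, Igf2r and Blcap came next, with TET2KO means between 21.9 and 32.5 TPM and WT means between 22.8 and 30.0 TPM; their ranges over the 5 libraries overlapped, so that their order is not fixed beyond the spread. At the other end, 10 of the 37 genes had fewer than 50 counts summed over the 5 libraries: Usp29, Magel2, Rtl1, Mirg, Dlk1, Zim1, Ascl2, Phlda2, Slc22a3 and Zdbf2. All but Zdbf2 of these were also below the edgeR filter on low counts, which 28 genes passed, 18 paternally and 9 maternally expressed ones and Gnas.

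**Figure D1:**
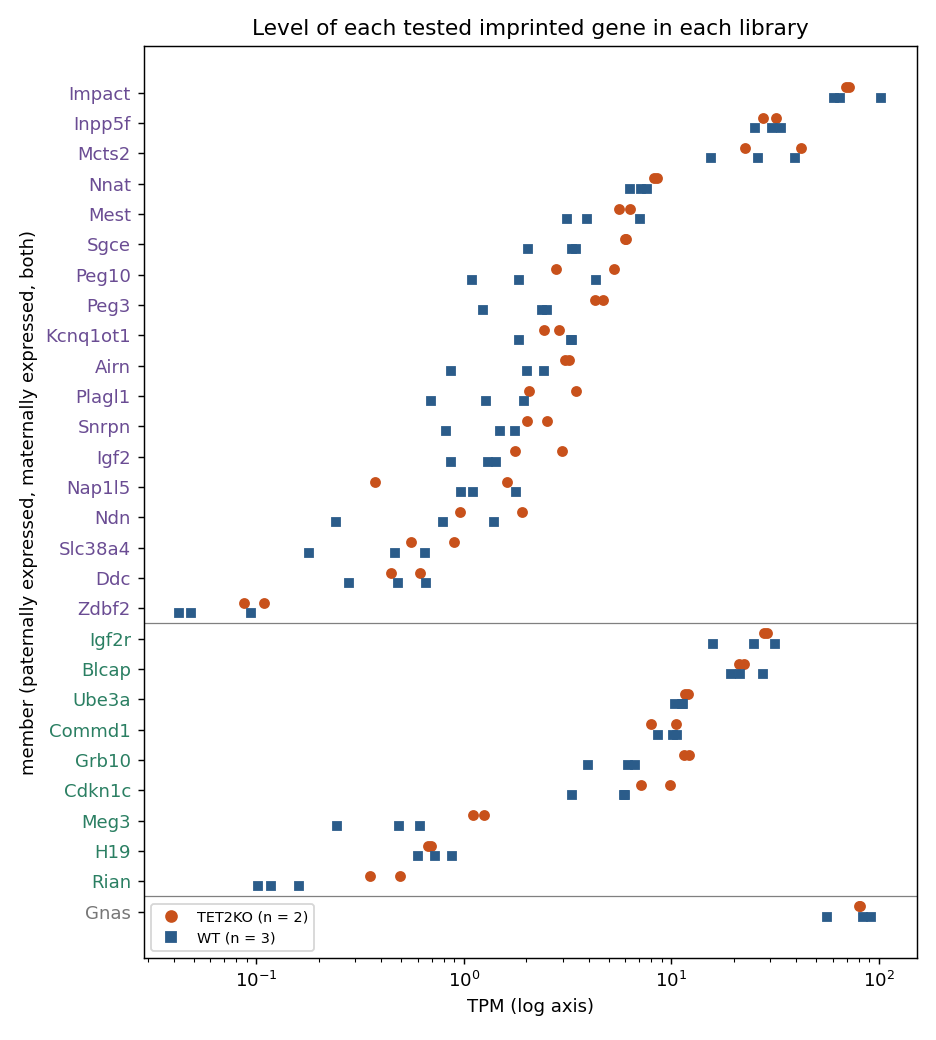
TPM of the 28 tested imprinted genes in each library on a log axis, paternally expressed genes in the upper block, maternally expressed ones in the middle block and Gnas below; circles are the 2 TET2KO libraries and squares the 3 WT libraries. Gnas and Impact lie highest and Zdbf2 and Rian lowest, and the circles of Grb10, Sgce, Peg3, Meg3 and Rian lie to the right of all squares.

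No imprinted gene passed the test between genotypes. Several nevertheless lay higher in both TET2KO libraries than in any WT library, led by Grb10, Rian, Sgce, Peg3 and Meg3, with fold changes between 1.79 and 2.90. Of the 28 tested genes, the quasi-likelihood test of edgeR (Benjamini-Hochberg adjustment over 18727 genes, adjusted p under 0.05) called 0, as it called 0% of all genes tested. At an unadjusted p under 0.05 the test counted 5 imprinted genes higher in TET2KO, or 17.9%, and 0 lower, against 5.32% of all genes higher and 0.539% lower. By limma-voom the unadjusted counts were also 5 higher and 0 lower, against 5.43% and 0.491% of all genes, and DESeq2 called 0 of them at an adjusted p under 0.05, where it called 0.32% of all genes, all higher in TET2KO. For 9 of the 28 genes both TET2KO values exceeded every WT value (12.4% of all genes tested) and for 2 both were below every WT value (12.4% of all genes tested). The genes were chosen with earlier results of these data known, so these shares are description only. Of 38 further imprinted genes tested, 5.26% were higher at an unadjusted edgeR p under 0.05 and 0 lower. For 3 of those 38 both TET2KO values were above every WT value, and for 5 both were below. Over the 18 tested paternally expressed genes the median log2 fold change was 0.51, with 13 above 0 and 5 below. Over the 9 maternally expressed genes it was 0.06, with 5 above 0 and 4 below. At an unadjusted edgeR p under 0.05, 2 of the 18 (11.1%) and 3 of the 9 (33.3%) were higher (5.32% of all genes). In both groups 0 were lower (0.539% of all genes). Both TET2KO values exceeded every WT value for 5 of the 18 and 4 of the 9 (12.4% of all genes). Both were below for 1 gene of each group (12.4% of all genes). The medians and these shares thus ordered the parental groups differently. The median over all genes tested was -0.08, and 41.6% of them were above 0.

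**Figure D2:**
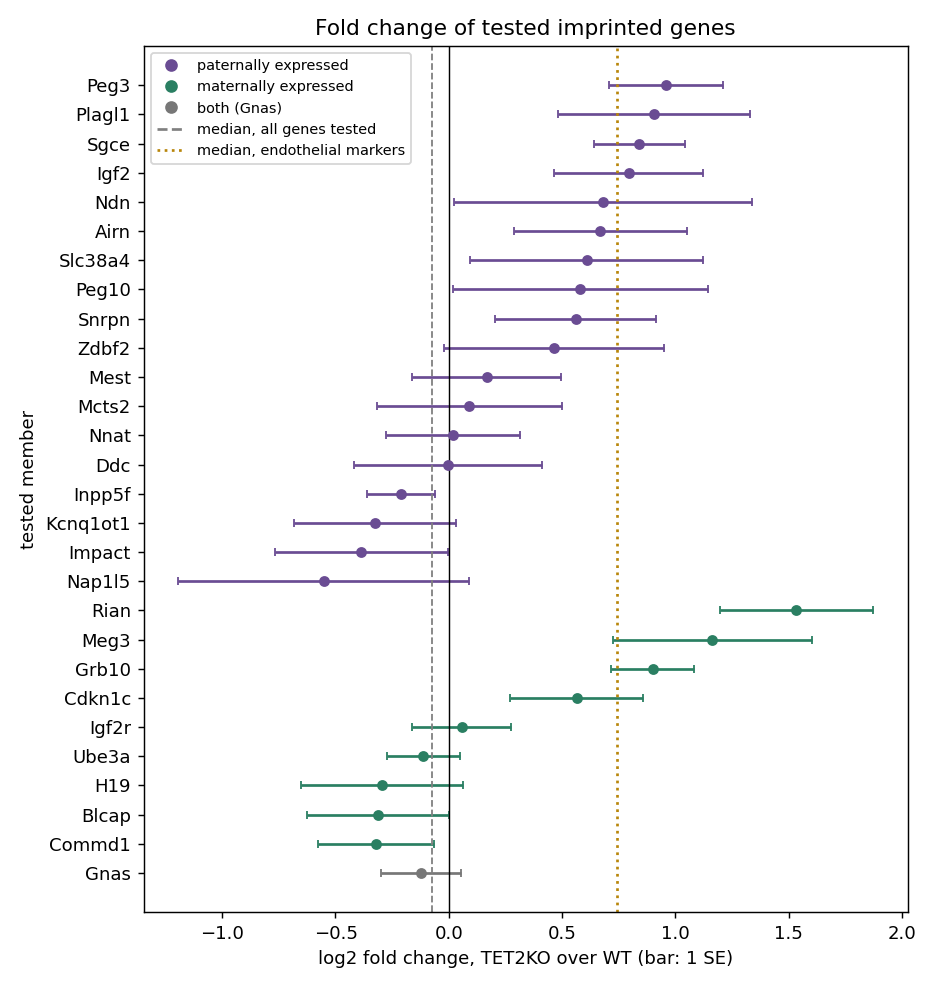
Log2 fold change of each tested imprinted gene, TET2KO over WT, with bars of 1 SE, sorted within the paternally expressed, maternally expressed and both-parent groups. The dashed line is the median over all genes tested (-0.08) and the dotted line the median over the endothelial markers (0.74), beside which Grb10 (0.90), Sgce (0.84), Peg3 (0.96) and Igf2 (0.79) lie.

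Endothelial markers lay higher in TET2KO too, although edgeR and DESeq2 each called 0 of the 20. At an unadjusted p under 0.05 by edgeR, 13 were higher (65%, against 5.32% of all genes) and 0 lower (0.539% of all genes). All 20 had a log2 fold change above 0, with a median of 0.74, and 19 of the 20 had both TET2KO libraries above all WT libraries (12.4% of all genes tested). In such bulk isolates fewer cells of a type and less RNA per cell cannot be told apart. When the libraries were scaled on the summed counts of those markers instead of by TMM, the log2 fold change became 0.17 for Grb10, 0.11 for Sgce, 0.25 for Peg3, 0.33 for Meg3 and 0.78 for Rian (edgeR adjusted p = 0.199 for Rian). Under that scaling the medians were -0.19 for paternally and -0.65 for maternally expressed genes, where the median over all genes was -0.82. The fold changes of Grb10, Sgce and Peg3 were thus close to that of the summed endothelial markers. The part of endothelial content in the differences of the imprinted genes was not tested.

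Markers of other cell types that a lung isolate can hold were also unevenly spread. The 12 fibroblast markers held 0.0136% and 0.0131% of counts in TET2KO and 0.0142%, 0.00533% and 0.006% in WT, with a median log2 fold change of 0.53 and 11 of 12 tested genes above 0. Of these 12, 4 were higher at an unadjusted edgeR p under 0.05 (5.32% of all genes) and 0 lower (0.539% of all genes). The 10 pericyte and smooth muscle markers held 0.00257% and 0.00263% in TET2KO and 0.002%, 0.0027% and 0.00171% in WT. Over the 8 tested, the median log2 fold change was 0.37, with 7 above 0, and 0 had an unadjusted edgeR p under 0.05. The 8 mesothelial markers held 0.00328% and 0.0047% in TET2KO and 0.00153%, 0.000782% and 0.00101% in WT. Their median log2 fold change was 1.75 over the 7 tested, and all 7 were higher at an unadjusted edgeR p under 0.05 (5.32% of all genes). DESeq2 called 4 of the 7, where it called 0.32% of all genes, and Calb2 was below the filter on low counts. The 10 alveolar epithelial markers held 0.0707% and 0.102% in TET2KO and 0.093%, 0.0304% and 0.0375% in WT. Their median log2 fold change was 0.78, near the 0.74 of the endothelial markers, with 9 above 0 and 1 below. At an unadjusted p under 0.05 by edgeR, 4 of them were higher (5.32% of all genes) and 0 lower (0.539% of all genes). The part of these cells in the differences described here was not tested.

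Grb10 had the smallest p of the imprinted genes. It encodes an adaptor that binds the insulin and IGF1 receptors and restrains their signalling, and it is read from the maternal copy in most tissues. The gene lies on chromosome 11 (GRCm38, 11930508 to 12038683, minus strand), and its exons overlap no other annotated exon. Grb10 was at 30.4 and 28.8 CPM in TET2KO against 16.1, 13.7 and 17.9 CPM in WT. The groups did not overlap, and the lowest TET2KO library was well above the highest WT library. The log2 fold change was 0.90 (SE 0.18, edgeR unadjusted p = 0.00322, adjusted p = 0.740), and by DESeq2 the adjusted p was 0.0601. Without any 1 of the 5 libraries it stayed between 0.83 and 1.03, and it was 1.03 without WT replicate 3.

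Meg3 and Rian, maternally expressed RNAs of the Dlk1-Dio3 region on chromosome 12, were both higher in TET2KO, by values that did not pass the correction. The maternal copy of this region gives long non-coding RNAs, which include Meg3, Rian (the host of a run of small nucleolar RNAs) and Mirg (the host of a microRNA cluster). The paternal copy gives the Delta-like protein gene Dlk1 and the retrotransposon-derived gene Rtl1. Meg3 (109541001 to 109571726, plus strand) was at 5.50 and 6.20 CPM in TET2KO against 3.19, 3.35 and 1.30 CPM in WT. WT replicate 3 was the lowest library, and the TET2KO libraries were above all WT libraries. Its log2 fold change was 1.16 (SE 0.44, edgeR adjusted p = 0.821), and it was 0.87 without WT replicate 3. In raw counts, Meg3 had 182 and 198 in TET2KO and 91, 99 and 41 in WT. Rian (109603940 to 109661716, plus strand) rested on fewer reads, 56 and 75 counts in TET2KO against 23, 20 and 19 counts in WT. In CPM these were 1.69 and 2.35 in TET2KO and 0.806, 0.676 and 0.604 in WT, so that the lower TET2KO library was above every WT library. Rian had the largest log2 fold change of the tested imprinted genes, 1.54 (SE 0.34, edgeR unadjusted p = 0.00456, adjusted p = 0.740), with a range of 1.28 to 1.75 when each library was left out in turn. Mirg, downstream on the same strand, had 4 and 1 counts in TET2KO and 3, 0 and 0 counts in WT, too few to compare. From the paternal copy, Dlk1 had 0 and 3 counts in TET2KO and 3, 0 and 3 in WT, and Rtl1 had 0 and 2 in TET2KO and 0, 0 and 1 in WT. Per length, Meg3 was at 1.18 ± 0.10 TPM in TET2KO and 0.45 ± 0.19 TPM in WT, above Rian at 0.42 ± 0.10 TPM in TET2KO and 0.13 ± 0.03 TPM in WT. Meg3 and Rian were thus the only genes of the 5 named from this region with more than 9 counts, while the maternally expressed Mirg (8 counts over the 5 libraries) was as low as the paternally expressed Dlk1 (9 counts).

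The start windows of Grb10, Meg3 and Rian are shown because these 3 maternally expressed genes had the largest positive fold changes of their group and because the 5-methylcytosine that TET2 oxidises lies mostly in CpG. Each is the most upstream RefSeq window (250 bases before to 50 after the annotated start, GRCm38.p6), read 5′ to 3′ on the strand of the gene, with CpG dinucleotides in capitals.
Grb10 (chr11:12037371-12037670, minus strand): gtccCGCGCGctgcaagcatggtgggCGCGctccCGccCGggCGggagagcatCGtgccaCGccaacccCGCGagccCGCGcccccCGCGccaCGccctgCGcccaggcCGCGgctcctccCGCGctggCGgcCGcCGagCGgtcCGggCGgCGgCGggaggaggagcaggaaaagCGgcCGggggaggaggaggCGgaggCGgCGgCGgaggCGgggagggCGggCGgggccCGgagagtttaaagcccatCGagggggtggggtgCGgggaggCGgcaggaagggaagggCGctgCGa
Meg3 (chr12:109540746-109541045, plus strand): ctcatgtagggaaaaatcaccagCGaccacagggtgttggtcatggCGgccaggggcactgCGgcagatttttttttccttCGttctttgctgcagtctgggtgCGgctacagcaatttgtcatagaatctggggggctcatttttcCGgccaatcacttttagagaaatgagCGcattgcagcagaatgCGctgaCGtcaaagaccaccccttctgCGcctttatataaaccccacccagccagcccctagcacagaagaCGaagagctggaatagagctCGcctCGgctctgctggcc
Rian (chr12:109603695-109603994, plus strand): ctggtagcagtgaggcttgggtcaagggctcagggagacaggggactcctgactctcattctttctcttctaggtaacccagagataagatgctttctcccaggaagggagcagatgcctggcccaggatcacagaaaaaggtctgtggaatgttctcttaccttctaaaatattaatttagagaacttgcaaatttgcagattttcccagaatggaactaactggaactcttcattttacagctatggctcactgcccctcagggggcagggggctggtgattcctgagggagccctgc
The Grb10 window held 45 CpG, more than 98.1% of the 32851 windows in the table, the Meg3 window 13 and the Rian window 0. The median was 7 over all windows and 14 over the 49 windows found for 31 of the 37 genes. The most upstream windows of the 3 genes thus ranged from CpG-rich to free of CpG. A further RefSeq window held 9 CpG for Grb10 and 1 for Meg3, and which start was used in these cells was not measured. The hexamer TGCCGC, which the imprint-protecting protein ZFP57 binds when its CpG is methylated, was searched on both strands. The Grb10 and Meg3 windows held 1 match each and the Rian window 0. At least 1 match was held by 11.6% of all windows and by 26.5% of the 49 windows. The hexamer itself contains a CpG, and these shares were not compared at equal CpG content. Some of the 49 windows also overlap, as 2 of Mest do, and were counted separately. Methylation was not measured.

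Peg3, a paternally expressed zinc finger gene on chromosome 7 (6703892 to 6730431, minus strand), was 1.94-fold higher in TET2KO, short of the threshold. It was at 17.04 and 15.7 CPM in TET2KO against 9.04, 6.29 and 9.91 CPM in WT. The groups did not overlap, and WT replicate 2 was lowest. The log2 fold change was 0.96 (SE 0.25, edgeR unadjusted p = 0.00989, adjusted p = 0.740), and leaving out each library gave 0.81 to 1.13. Usp29, a paternally expressed ubiquitin-specific peptidase gene, starts 146 bases away on the other strand, and their start windows share 263 bases. It had 0 counts in every library, which allows up to 0.0939 CPM in TET2KO and 0.105 CPM in WT by the limit of 3 counts, for counting error only. Zim1, the maternally expressed zinc finger gene of the same domain, had 2 and 4 counts in TET2KO and 1, 0 and 2 in WT. The Peg3 window is shown because Peg3 and Usp29, a gene without a read, both start within it.
Peg3 (chr7:6730370-6730669, minus strand): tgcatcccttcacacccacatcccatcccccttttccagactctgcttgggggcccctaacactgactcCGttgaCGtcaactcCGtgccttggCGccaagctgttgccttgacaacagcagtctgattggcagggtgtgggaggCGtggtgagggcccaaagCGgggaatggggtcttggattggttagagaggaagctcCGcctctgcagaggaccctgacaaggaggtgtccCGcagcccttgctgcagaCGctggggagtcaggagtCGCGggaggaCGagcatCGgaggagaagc
This window held 13 CpG, in capitals, and 0 matches to TGCCGC on either strand.

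Sgce and Peg10, both paternally expressed, form another pair of divergent neighbours, on chromosome 6 with 98 bases between their annotated starts, but their library patterns differed. Sgce (epsilon-sarcoglycan, a membrane protein; 4674350 to 4747207, minus strand) was at 17.4 and 17.6 CPM in TET2KO against 10.1, 8.25 and 10.9 CPM in WT. Its groups did not overlap, and the 2 TET2KO libraries were nearly equal. The log2 fold change was 0.84 (SE 0.20, edgeR unadjusted p = 0.00662, adjusted p = 0.740), with a range of 0.76 to 0.96 when each library was left out. Peg10 (a retrotransposon-derived gene needed in the placenta; 4747306 to 4760517, plus strand) was at 9.67 and 5.11 CPM in TET2KO against 3.50, 2.77 and 8.52 CPM in WT. WT replicate 3 lay between the TET2KO libraries, so the groups overlapped. Its log2 fold change of 0.58 (SE 0.56, edgeR adjusted p = 0.864) was 1.27 when WT replicate 3 was left out and 0.04 when TET2KO replicate 1 was. The ratio of Peg10 to Sgce in TPM was 0.886 and 0.462 in TET2KO and 0.551, 0.535 and 1.24 in WT. In the authors' deposited table, which set WT replicate 3 with the TET2KO libraries, Peg10 had a log2 fold change of 1.32 (adjusted p = 0.0382) and was the only one of the 27 imprinted genes listed there with an adjusted p under 0.05.

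**Figure D3:**
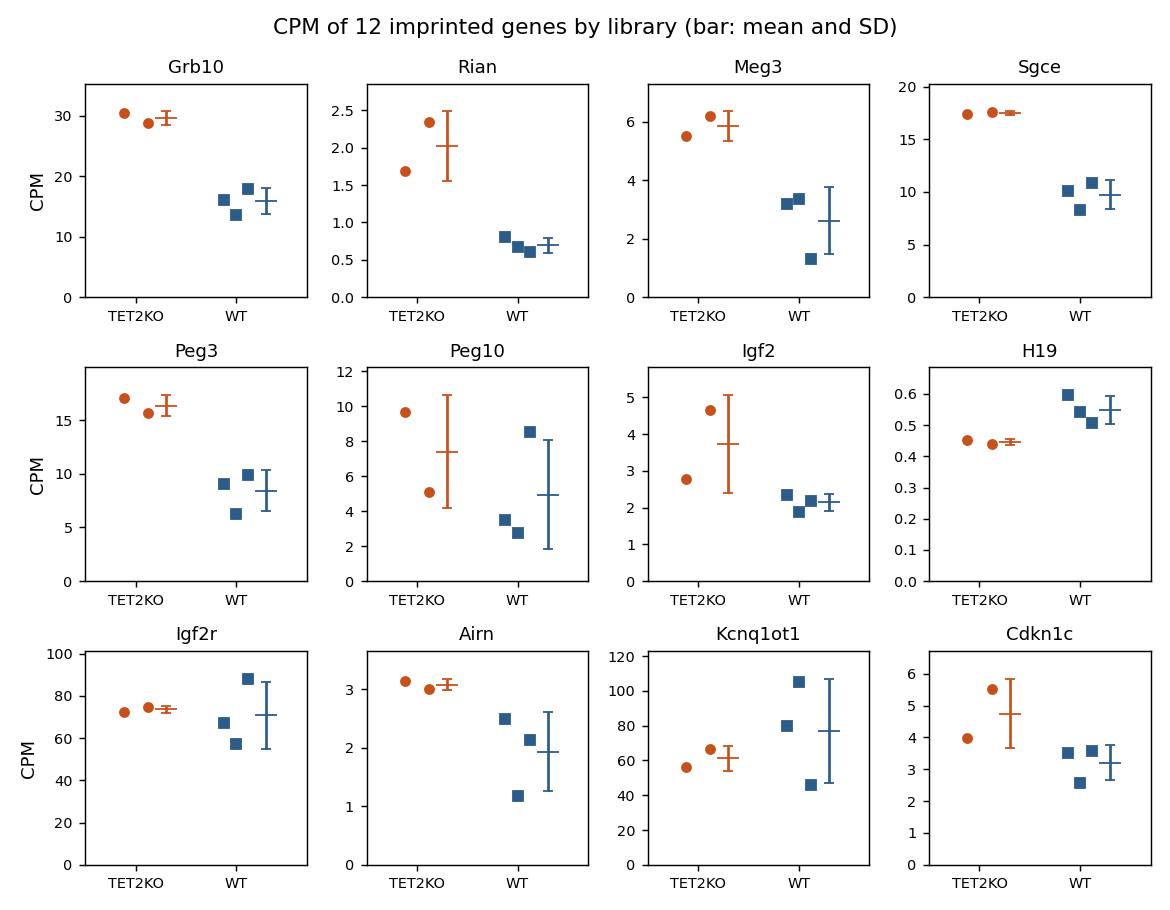
CPM of 12 imprinted genes in each library, TET2KO left and WT right in each panel, with the mean and SD beside the points and a linear axis from 0. The groups are apart for Grb10, Rian, Meg3, Sgce, Peg3, Igf2, H19, Airn and Cdkn1c, and they overlap for Peg10, Igf2r and Kcnq1ot1.

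The H19-Igf2 pair shares enhancers on chromosome 7, with the growth factor gene Igf2 read from the paternal and the growth-limiting non-coding RNA H19 from the maternal copy. Igf2 (142650766 to 142666816, minus strand) was at 2.78 and 4.67 CPM in TET2KO against 2.35, 1.89 and 2.19 CPM in WT. TET2KO replicate 2 was high and replicate 1 only just above the WT libraries. The log2 fold change was 0.79 (SE 0.33, edgeR adjusted p = 0.863), and without TET2KO replicate 2 it was 0.37. Annotated exons of other genes, one of them the antisense gene Igf2os, cover 64.5% of the exonic length of Igf2, and whether reads were counted by strand is not stated, so its level is uncertain. H19 (142575529 to 142578143, minus strand) had 15 and 14 counts in TET2KO and 17, 16 and 16 in WT. That is 0.453 and 0.438 CPM in TET2KO against 0.596, 0.541 and 0.508 CPM in WT, a log2 fold change of -0.29 (SE 0.36, edgeR adjusted p = 0.878). The groups did not overlap, but differed by a few reads. The ratio of Igf2 to H19 in TPM was 2.54 and 4.41 in TET2KO and 1.63, 1.45 and 1.79 in WT.

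Igf2r, which encodes the mannose 6-phosphate receptor that clears IGF2, is read from the maternal copy, and Airn, a long non-coding RNA that crosses it from an intronic start, from the paternal copy. Igf2r (chromosome 17, 12682406 to 12769664, minus strand) was at 72.4 and 74.9 CPM in TET2KO against 67.3, 57.1 and 87.9 CPM in WT. The TET2KO libraries lay within the WT range, and the log2 fold change was 0.06 (SE 0.22, edgeR adjusted p = 0.959). Airn (12741311 to 12860136, plus strand) was at 3.14 and 3.01 CPM in TET2KO against 2.49, 1.18 and 2.13 CPM in WT, above every WT library. The log2 fold change was 0.67 (SE 0.38, edgeR adjusted p = 0.864), or 0.44 without WT replicate 2. Airn starts inside an Igf2r intron, so reads of unspliced Igf2r RNA could not be told apart from it. Slc22a3, an organic cation transporter gene of the same domain, had 18 and 9 counts in TET2KO against 4, 2 and 7 in WT, too few to pass the filter.

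Genes of the IGF axis that are not imprinted were read beside Igf2, Igf2r and Grb10. Of the 18 tested, 0 passed the edgeR correction. At an unadjusted p under 0.05, 5 were higher (27.8%, against 5.32% of all genes) and 0 lower (0.539% of all genes). The median log2 fold change was 0.52, with 10 above 0 and 8 below. The lowest, named for that place, was the ligand gene Igf1 at -1.66 (edgeR unadjusted p = 0.210). The 5 genes named next had the smallest p of the list, and all 5 were higher in TET2KO, unlike the 8 genes below 0. Igfbp6, a binding protein with a preference for IGF2, was at 7.49 and 11.3 CPM in TET2KO against 4.03, 3.52 and 3.65 CPM in WT. Its log2 fold change was 1.33 (SE 0.26, edgeR adjusted p = 0.740), and DESeq2 called it (adjusted p = 0.0246). The binding protein gene Igfbp5 was at 80.2 and 129 CPM in TET2KO against 52.7, 43.1 and 52.5 CPM in WT. The log2 fold change was 1.19 for Irs1, the docking protein of the insulin and IGF1 receptors, 0.94 for the binding protein gene Igfbp3 and 0.60 for Igf1r, the receptor of IGF1 and IGF2. With the endothelial scaling these 5 genes were at 0.57, 0.34, 0.50, 0.22 and -0.12, in the order Igfbp6, Igfbp5, Irs1, Igfbp3 and Igf1r.

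In the Kcnq1ot1 domain of chromosome 7, the paternally expressed antisense RNA Kcnq1ot1 silences maternally expressed neighbours. Kcnq1ot1 (143203458 to 143296549, minus strand) was at 56.3 and 66.4 CPM in TET2KO against 80.1, 105 and 45.6 CPM in WT. WT replicate 2 was highest and WT replicate 3 lowest, and the log2 fold change was -0.33 (SE 0.36, edgeR adjusted p = 0.869). It was -0.00015 without WT replicate 2 and -0.56 without WT replicate 3. Kcnq1ot1 is annotated as 1 unspliced exon inside Kcnq1, so reads of unspliced Kcnq1 RNA could not be told apart from it. Cdkn1c, the cell cycle inhibitor p57, was at 3.99 and 5.51 CPM in TET2KO against 3.50, 2.57 and 3.56 CPM in WT. Both TET2KO libraries were above the WT libraries, replicate 1 by little, and the log2 fold change was 0.56 (SE 0.30, edgeR adjusted p = 0.864), or 0.31 without TET2KO replicate 2. Phlda2, which limits placental growth, had 2 and 5 counts in TET2KO and 4, 10 and 1 in WT, and the trophoblast transcription factor gene Ascl2 had 1 and 3 in TET2KO and 5, 3 and 1 in WT.

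Plagl1, a paternally expressed zinc finger transcription factor gene, was at 4.41 and 7.42 CPM in TET2KO against 2.87, 2.06 and 4.51 CPM in WT. WT replicate 3 was just above TET2KO replicate 1, and the log2 fold change was 0.91 (SE 0.42, edgeR adjusted p = 0.864), or 1.29 without WT replicate 3 and 0.48 without TET2KO replicate 2. From the Snrpn-Ube3a region, the paternally expressed Snrpn, a splicing protein gene, was at 1.48 and 1.19 CPM in TET2KO against 1.09, 0.676 and 0.953 CPM in WT (log2 fold change 0.56, SE 0.36). Ndn, which encodes the growth suppressor necdin, was at 0.967 and 1.94 CPM in TET2KO against 0.841, 0.338 and 1.53 CPM in WT, and the groups overlapped. Magel2 had 1 read in all, in WT replicate 3. Ube3a, the ubiquitin ligase gene read from the maternal copy in neurons, was at 65.5 and 68.3 CPM in TET2KO against 66.5, 81.7 and 68.9 CPM in WT. Its log2 fold change was -0.11 (SE 0.16, edgeR adjusted p = 0.894).

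Exons of other genes overlap part of the exonic length of several of these genes, 34.1% for Snrpn, 30.7% for Cdkn1c, 27.3% for Ube3a, 23.1% for Mest (with Copg2), 22.0% for Gnas and 11.9% for Commd1, so their levels carry the uncertainty given for Igf2.

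Gnas and Impact, the highest by TPM, and several genes at lower levels differed little between genotypes. Gnas was at 247 and 248 CPM in TET2KO against 268, 238 and 302 CPM in WT, with a log2 fold change of -0.12 (SE 0.18, edgeR adjusted p = 0.894). Impact was at 65.0 and 67.6 CPM in TET2KO against 60.0, 134 and 65.7 CPM in WT. WT replicate 2 stood alone above the others, and the log2 fold change of -0.39 (SE 0.38) became 0.10 without it. Inpp5f, an inositol phosphatase gene of which only some transcripts are imprinted, was at 63.0 and 72.7 CPM in TET2KO against 80.5, 80.3 and 75.1 CPM in WT. Both TET2KO libraries were below the WT libraries, with a log2 fold change of -0.21 (SE 0.15, edgeR adjusted p = 0.864). Blcap, at 17.7 and 18.8 CPM in TET2KO, was at 18.6, 32.1 and 17.3 CPM in WT, while Nnat, a membrane proteolipid gene inside a Blcap intron, was at 4.14 and 4.26 CPM in TET2KO and 3.29, 5.31 and 3.84 CPM in WT. Commd1, which encodes a copper-handling protein, was at 12.96 and 17.1 CPM in TET2KO and 18.2, 23.1 and 15.0 CPM in WT (log2 fold change -0.32, SE 0.26). Mest, a hydrolase-like gene, was at 6.04 and 6.86 CPM in TET2KO and 7.99, 4.70 and 4.54 CPM in WT (log2 fold change 0.17, SE 0.33). Mcts2, a retrocopy of Mcts1 inside an H13 intron whose reads may be shared with Mcts1, was at 10.6 and 5.70 CPM in TET2KO and 6.87, 5.41 and 10.7 CPM in WT. Each of these groups overlapped except those of Inpp5f.

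Of the tested genes not yet described, Nap1l5, a nucleosome assembly protein-like gene, had 27 and 6 counts in TET2KO and 27, 20 and 19 in WT. Its log2 fold change of -0.55 (SE 0.64) rested on TET2KO replicate 2 and was 0.14 without it. Ddc, the aromatic amino acid decarboxylase gene beside Grb10, had 18 and 24 counts in TET2KO and 24, 14 and 20 in WT (log2 fold change -0.0042, SE 0.42). Slc38a4, an amino acid transporter gene, had 20 and 31 counts in TET2KO and 21, 8 and 17 in WT (log2 fold change 0.61, SE 0.52, or 0.23 without TET2KO replicate 2). Zdbf2 had 10 and 12 counts in TET2KO and 5, 6 and 11 in WT (log2 fold change 0.47, SE 0.48). Each of these 4 genes rested on 100 counts or fewer over the 5 libraries, their groups overlapped, and none passed the test.

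Other imprinted genes and the factors that keep imprints were read from lists of known genes. Of 54 further imprinted genes, 38 were tested, 0 passed the edgeR correction, 2 were higher at an unadjusted p under 0.05 (5.26%, near the 5.32% of all genes) and 0 lower, and the median log2 fold change was -0.11. The 2 were Ppp1r9a, an actin-binding protein gene beside Sgce and Peg10 on chromosome 6, and Kcnq1, the potassium channel gene that Kcnq1ot1 overlaps. Ppp1r9a was at 14.7 and 15.8 CPM in TET2KO against 11.0, 5.04 and 6.35 CPM in WT (log2 fold change 1.03, SE 0.36, edgeR adjusted p = 0.794). Kcnq1 was at 16.0 and 19.7 CPM in TET2KO against 11.3, 7.88 and 13.2 CPM in WT (log2 fold change 0.72, SE 0.27, edgeR adjusted p = 0.821). Of these 38 genes, 3 had both TET2KO values above every WT value and 5 had both below, where all genes tested gave 12.4% each way.

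Among 37 genes of imprint maintenance and DNA methylation, 32 were tested and 0 passed the edgeR correction, with a median log2 fold change of -0.11. At an unadjusted p under 0.05, 2 genes (6.25%, against 5.32% of all genes) were higher and 0 lower. Zfp57, the zinc finger protein gene that protects methylated imprinting control regions, had the smallest p of the list. It was at 13.2 and 14.1 CPM in TET2KO against 7.15, 6.32 and 7.28 CPM in WT, with no overlap and little spread within either group. Its log2 fold change was 0.98 (SE 0.19, edgeR unadjusted p = 0.00268, adjusted p = 0.740), DESeq2 called it (adjusted p = 0.0200), and with the endothelial scaling it was 0.23. Tet1 was at 9.06 and 12.1 CPM in TET2KO against 6.38, 6.25 and 6.77 CPM in WT (log2 fold change 0.71, SE 0.22, edgeR adjusted p = 0.759). Trim28, the co-repressor of Zfp57, had a log2 fold change of -0.15 (SE 0.17) and Zfp445, a further imprint-protecting zinc finger gene, one of 0.03 (SE 0.14), and the groups overlapped for both. Dnmt1, the maintenance methyltransferase gene, was at 130 and 122 CPM in TET2KO against 131, 233 and 138 CPM in WT. Both TET2KO libraries were below the WT libraries, replicate 1 by little, and the log2 fold change was -0.41 (SE 0.29, edgeR adjusted p = 0.864). Trim28, Zfp445 and Dnmt1 were chosen after their values were seen.

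**Figure D4:**
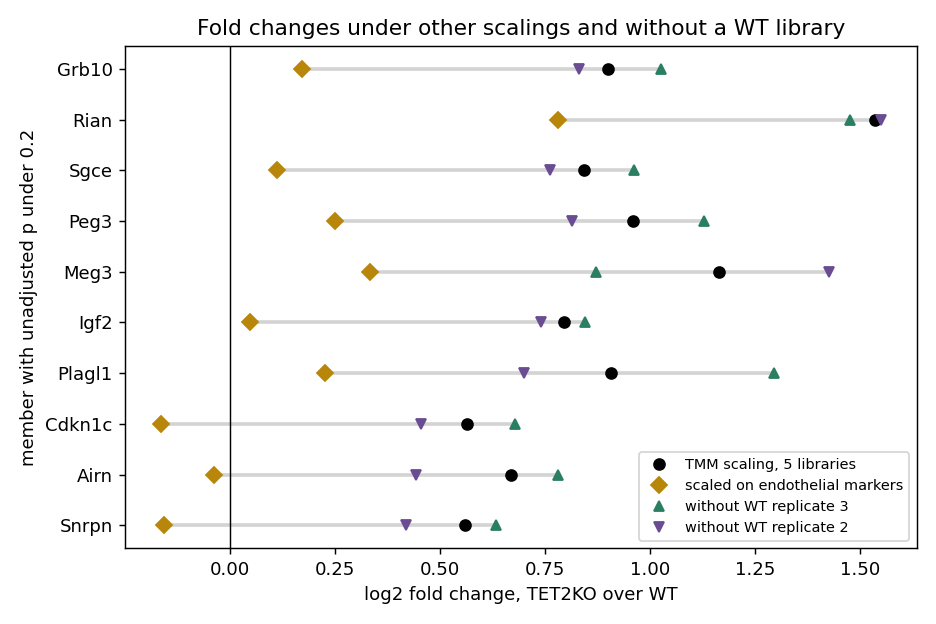
Log2 fold change, TET2KO over WT, of the 10 imprinted genes with an unadjusted p under 0.2, with TMM scaling, with scaling on the endothelial markers, and without WT replicate 3 or 2. All values lie above 0 except those of Cdkn1c, Airn and Snrpn under the endothelial scaling, and Rian keeps the largest value of that scaling (0.78).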

How the data were processed

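Counts of reads per gene, as the authors deposited them, were whole numbers for 49315 Ensembl identifiers in 5 libraries. Per the submitters' processing notes, the tools were STAR 2.5.2b, Trimmomatic 0.36, DESeq2 and featureCounts (Subread 1.5.2), on GRCm38. Whether counting used strand is not given in the sources used here. The authors also deposited TPM, and a comparison table with log2 fold changes, p-values and counts divided by size factors (a normalized signal).

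Counts were tested with edgeR 4.0.16 in R 4.3.3 (quasi-likelihood, TMM, filterByExpr, genotype only, Benjamini-Hochberg over 18727 genes, threshold 0.05). A gene's SE is its log2 fold change over the square root of F. Fold changes are TET2KO over WT. Alternatives were DESeq2 1.42.0, limma-voom (limma 3.58.1), other scalings and filters, limma on log2(TPM + 1) or log2(TPM + 0.1), each library left out, and a replicate block. The fits were tested on simulated counts. The imprinted genes, lists and markers were chosen with earlier results of these data known. Every one of the 37 genes is named; from other lists, the text names genes among the 5 with the smallest p, and beside them Tet2 and the defining markers Cdh5 and Ptprc, unless stated. Gene coordinates and overlaps came from GENCODE M21 (GRCm38) and start windows from RefSeq (GRCm38.p6). Intervals and floors cover counting error only.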

Additional observations from a re-analysis of the deposited data

How the results depend on the processing

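edgeR called 0 genes in all, and 0 imprinted genes, under every alternative run, each library left out included; DESeq2 called 60 genes in all, 0 imprinted ones, 1 of imprint maintenance (Zfp57) and 1 of the IGF axis (Igfbp6). limma-voom called 0. The count of imprinted genes whose groups did not overlap was 11, and between 13 and 17 when a library was left out. The share that did not overlap was then 57.1% without TET2KO replicate 1 (44.5% of all genes), 51.7% without TET2KO replicate 2 (40.7%), 50% when WT replicate 1 was dropped (33.5%), 46.4% after dropping WT replicate 2 (42.9%) and 63% after dropping WT replicate 3 (40.1%). In the last of these, 13 of 27 were above and 4 below, where all genes gave 21% and 19.1%. The paternal median of 0.51 was -0.19 with endothelial scaling and ran from 0.27 to 0.63 over the fits without a library. The maternal median of 0.06 was 0.18 with library totals, -0.65 with endothelial scaling, 0.35 without a filter, 0.33 with at least 1 CPM in 2 libraries, 0.28 and 0.29 on log2(TPM + 1) and log2(TPM + 0.1), 0.25 with the replicate block, and ran from 0.024 to 0.28 without a library. Fits without a TET2KO library assume that the remaining one varies like the WT libraries.

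Signs turned under some alternatives, also for Airn, Slc38a4, Peg10, Cdkn1c, Snrpn, Zdbf2 and Nap1l5, whose values were not near 0. With endothelial scaling the log2 fold change was -0.16 for Cdkn1c, -0.65 for Igf2r, -0.039 for Airn, -0.038 for Peg10, -0.60 for Mest, -0.16 for Snrpn, -0.77 for Nnat, -0.58 for Mcts2, -0.22 for Zdbf2 and -0.10 for Slc38a4; that scaling moved the median of all genes to -0.82. Ddc was at 0.012 by DESeq2, 0.012 by limma-voom, 0.011 with RLE factors, 0.12 with library totals, 0.039 without a filter, 0.060 on log2(TPM + 1) and 0.18 on log2(TPM + 0.1). With library totals, log2(TPM + 1) and log2(TPM + 0.1), Ube3a was at 0.038, 0.10 and 0.10, and Gnas at 0.0055, 0.095 and 0.10, where the medians of all genes were 0.06, 0.13 and 0.17. Leaving out each library gave ranges of -0.051 to 0.28 for Igf2r, -0.25 to 0.22 for Ddc, -1.96 to 0.14 for Nap1l5, -0.17 to 0.01 for Ube3a, -0.12 to 0.26 for Nnat, -0.45 to 0.052 for Blcap, -0.43 to 0.47 for Mcts2 and -0.59 to 0.10 for Impact. The causes were not tested.

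The shared replicate numbers name samples only, as nothing in the labels pairs them and the groups share 2 numbers. Deviations of same-numbered libraries correlated at 0.22 and 0.49. TET2KO replicate 1 and WT replicate 3, which share no number, correlated at 0.45. With 2 TET2KO libraries the deviations of one mirror those of the other, so these correlations cannot tell whether libraries were paired. With the replicate block 2982 genes had an unadjusted p under 0.05, against 997 higher and 101 lower without it, 0 passed the correction, the paternal median was 0.64 and Nnat was at -0.00031.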
